A study of Mus musculus with 6 samples.

Results

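The TAM receptors are the 3 receptor tyrosine kinases Axl, Mertk and Tyro3, and their ligands are the secreted proteins Gas6 and Pros1 (protein S). These 5 genes were chosen by name, each was read by 1 probe set annotated to that gene alone, and they are 5 of the 19938 genes measured. Total RNA of 6 mouse tumours was hybridised to Affymetrix arrays, 1 array per tumour, and values are the log2 intensities as deposited, on which a difference of 1 is a 2-fold change. Glioma cells that depend on a mutant form of EGFR, the epidermal growth factor receptor, had been implanted under the flank skin of Nu/Nu mice, which lack a thymus and so mature T cells. The labels give 3 control gliomas, numbered 1, 2 and 4, and 3 relapsed gliomas, numbered 1, 2 and 3, which the series describes as relapses after extinction of the mutant receptor. Doxycycline was added at 2 g/L to the drinking water of some mice and tumours were taken at 2 cm3, but it is not stated in which group the drug was given. The age of the mice, the species and form of the mutant receptor, and whether tumours came from separate animals were not stated either. The p-values therefore measure the spread between these tumours, which includes technical spread and may not be a spread between animals.

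As background, Gas6 and protein S bridge phosphatidylserine, a lipid exposed on dying cells, to TAM receptors on the cells that engulf them. Both ligands carry an amino-terminal Gla domain whose glutamates are carboxylated by a vitamin K-dependent enzyme, which lets them bind the lipid. Mertk is best known in macrophages and microglia, where it drives the uptake of apoptotic cells and restrains inflammation. Axl is induced in many tumours, gliomas among them, and can form complexes with EGFR family receptors, and Tyro3 is the TAM receptor most associated with neurons and glia.

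None of the 5 genes passed the test between relapsed and control tumours. With calls made in limma at a Benjamini-Hochberg adjusted p under 0.05 over all genes, 0 of 5 members were called, against 9.16% of all genes. At an unadjusted limma p under 0.05, 1 member passed (Tyro3), against 26.6% of all genes. Tyro3 was lower and Gas6 higher in every relapsed tumour than in any control, so the groups were apart for 2 of 5 members, against 30.8% of all genes. Axl, Mertk and Pros1 overlapped between the groups. All 30 values of the members lay above 5.66, the median level of unannotated probe sets. Only those of Axl also lay above 10.84, the 95th percentile of these probe sets, so passing their median is a weak check of expression.

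**Figure D1:**
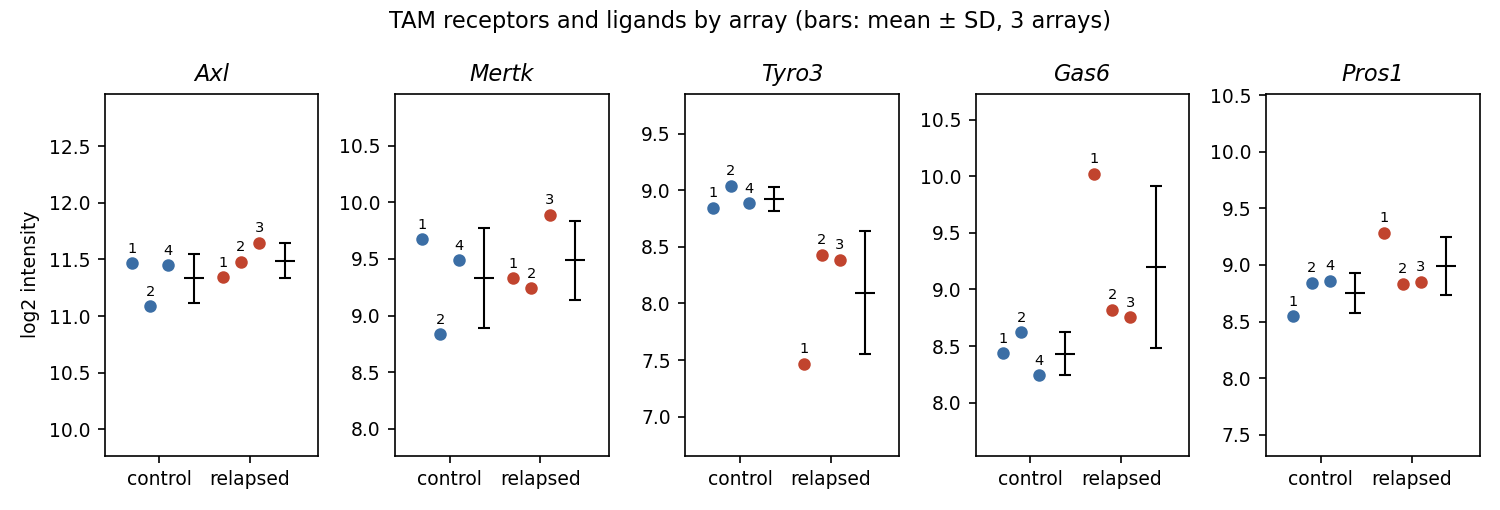
Log2 intensity of each member (vertical axes, each spanning the same range of log2 units) in the 3 control (blue) and 3 relapsed (red) gliomas, 1 point per array with its tumour number and, beside it, the mean ± SD. Tyro3 sits between 7.47 and 8.43 in relapsed tumours against 8.85 to 9.04 in controls, Gas6 between 8.75 and 10.02 against 8.24 to 8.62, and the groups overlap for Axl, Mertk and Pros1.

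Among the receptors, Axl had similar levels in both groups. Its log2 intensity was 11.47, 11.09 and 11.45 in control 1, 2 and 4 and 11.34, 11.48 and 11.65 in relapsed 1, 2 and 3. Control 2 was the lowest and relapsed 3 the highest, and the other 4 arrays lay close together. The difference was 0.16 ± 0.14 (SE, 3 arrays per group), and its 95% interval ran from -0.19 to 0.50 (limma, adjusted p = 0.534). The interval leaves out a 2-fold change in either direction. Control 2, the lowest array, also had a mean skeletal muscle marker level of 9.06 over 10 genes, against 6.90 to 7.49 in the other 5 arrays, and without it the Axl difference was 0.032. The part of muscle tissue in that value was not tested.

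Mertk, the engulfment receptor of macrophages, stood at 9.68, 8.83 and 9.49 in control 1, 2 and 4 and at 9.33, 9.24 and 9.89 in relapsed 1, 2 and 3. Control 2 was again the lowest and relapsed 3 again the highest, and the groups overlapped. The difference was 0.15 ± 0.28 (SE), and its 95% interval ran from -0.55 to 0.86 (limma, adjusted p = 0.777). Its direction rested on single arrays, since it was -0.10 without control 2 and -0.048 without relapsed 3.

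Tyro3, the receptor of neural tissue, was the member with the smallest p. Its log2 intensity was 8.85, 9.04 and 8.88 in control 1, 2 and 4, and 7.47, 8.43 and 8.39 in relapsed 1, 2 and 3. All 3 relapsed tumours were lower than all 3 controls, relapsed 1 by far the most. The mean was 8.10 ± 0.54 (SD) against 8.92 ± 0.10, a difference of -0.83 ± 0.28 (SE), or 1.78-fold lower. The 95% interval ran from -1.52 to -0.14, and the adjusted p in limma was 0.131. Tyro3 was thus not called with all arrays, and it was called only when relapsed 1 was left out. Its difference and SE were then both smaller, at -0.52 ± 0.08, and the adjusted p was 0.0476 in limma. An exact two-sided permutation test gave p = 0.1 for Tyro3, the smallest that 3 against 3 arrays allow. Any gene whose groups are apart gets that p, so it adds nothing to the lack of overlap.

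Of the ligands, Gas6 was higher in the relapsed tumours, but the size of the difference came mostly from 1 array. Its log2 intensity was 8.44, 8.62 and 8.24 in control 1, 2 and 4, and 10.02, 8.82 and 8.75 in relapsed 1, 2 and 3. Relapsed 1 stood apart, while relapsed 2 and 3 lay just above the highest control, with a gap of 0.13 between the groups. The difference was 0.77 ± 0.37 (SE), or 1.70-fold, and its 95% interval ran from -0.15 to 1.68 (limma, adjusted p = 0.257). Without relapsed 1 it was 0.36 ± 0.13, with an adjusted p of 0.186. The exact two-sided permutation test gave p = 0.1 here as well, a value again fixed by the groups being apart.

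Pros1, the second TAM ligand and also an anticoagulant plasma protein, stood at 8.55, 8.84 and 8.86 in control 1, 2 and 4 and at 9.28, 8.84 and 8.85 in relapsed 1, 2 and 3. Relapsed 2 and 3 matched control 2 and 4 to within 0.03, and relapsed 1 was again the highest. The difference was 0.24 ± 0.16 (SE), and its 95% interval ran from -0.16 to 0.64 (limma, adjusted p = 0.407). Without relapsed 1 it was 0.093.

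**Figure D2:**
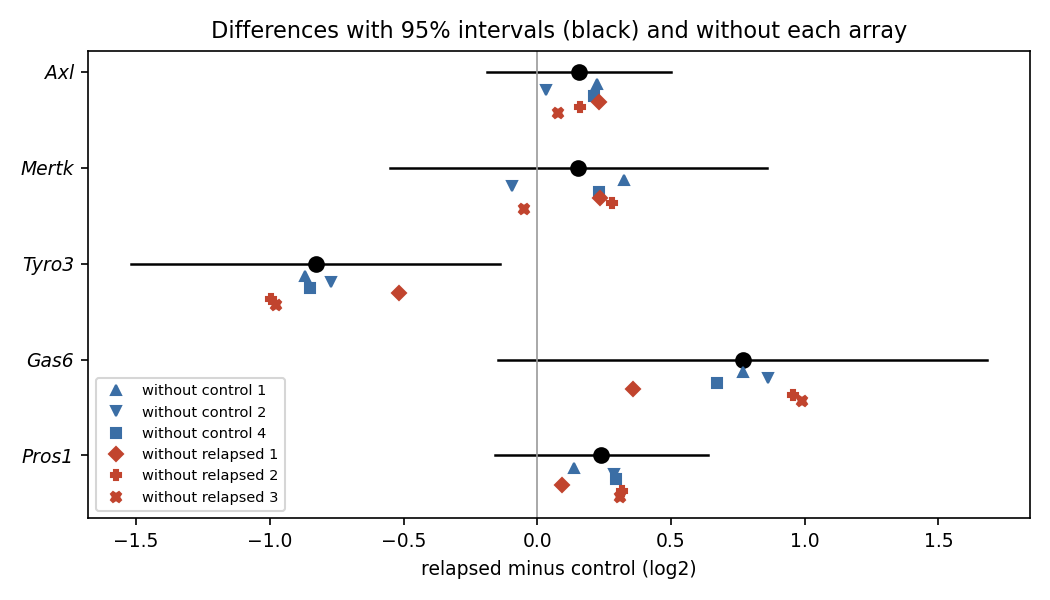
Relapsed minus control difference of each member (horizontal axis, log2) with its 95% interval from limma (black), and the same difference with each array left out (coloured symbols: blue without a control, red without a relapsed array). Leaving out relapsed 1 brings Tyro3 to -0.52, Gas6 to 0.36 and Pros1 to 0.093, and leaving out control 2 or relapsed 3 takes Mertk below 0.

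Both ligands were highest in relapsed 1, and their upstream sequences are shown because these were the 2 members with their highest level in that array. The RefSeq promoter table (build GRCm38.p6) was searched over 250 bases upstream of the annotated start for GGGCGG on both strands, the GC box bound by Sp1 and Sp3, with overlapping matches counted separately. Capitals mark the matches. Gas6 lies on the minus strand with its window at chr8:13494536-13494785, and Pros1 on the plus strand with its window at chr16:62854057-62854306.
Gas6: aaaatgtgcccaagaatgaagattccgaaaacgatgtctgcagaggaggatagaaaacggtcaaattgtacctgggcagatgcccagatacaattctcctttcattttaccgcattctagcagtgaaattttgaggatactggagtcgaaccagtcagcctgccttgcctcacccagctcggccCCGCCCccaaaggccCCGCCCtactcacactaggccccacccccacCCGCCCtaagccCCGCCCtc
Pros1: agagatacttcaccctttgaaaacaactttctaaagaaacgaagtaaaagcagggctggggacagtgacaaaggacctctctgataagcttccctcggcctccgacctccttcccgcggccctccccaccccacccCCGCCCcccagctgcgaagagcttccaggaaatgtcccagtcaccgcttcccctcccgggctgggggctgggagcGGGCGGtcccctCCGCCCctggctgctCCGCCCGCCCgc
Gas6 had 4 matches and Pros1 had 5, while 32.7% of 32851 promoter windows of this length had at least 1. The share of windows with as many as 4 or 5 was not counted. The Mertk window had 3 matches. The table's windows for Axl and Tyro3, with 1 and 3 matches, do not sit directly upstream of the gene's outermost RefSeq start: that of Axl lies partly and that of Tyro3 wholly inside the gene span. The windows were also searched for TGANTCA (AP-1), CATTCC (TEAD) and ACGTG (HIF). Gas6 and Pros1 had 0 matches to each of these, while 6.75%, 12.6% and 16.6% of all windows had at least 1. Sp1 was 9.13, 9.01 and 9.13 in control 1, 2 and 4 and 9.14, 9.27 and 9.13 in relapsed 1, 2 and 3. Sp3 stood higher in all relapsed tumours, at 10.16, 10.46 and 10.40 against 9.99, 9.81 and 9.86. The difference was 0.46 ± 0.10 (SE), with an adjusted p of 0.0514 in limma. Among the relapsed tumours Sp3 was lowest in relapsed 1, where both ligands were highest. A match is only a run of letters and does not show that a factor bound there.

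Relapsed 1 also differed in its RNA levels of tissue markers. The mean level of 7 adipocyte markers was 9.16 in relapsed 1 and 6.23 to 6.67 in the other 5 arrays, and Adipoq, the adiponectin gene, stood at 9.81 there against 5.29 to 5.88. Pparg, the nuclear receptor of adipocytes, was 8.86 in relapsed 1 and 7.32 to 7.48 elsewhere. Ggcx, the carboxylase that modifies both TAM ligands, followed the same array, at 9.63 against 8.35 to 8.86. Fibroblast markers were highest in relapsed 1 too, at a mean of 11.15 over 14 genes, with 10.53 and 10.49 in relapsed 2 and 3 and 9.15 to 9.73 in the controls. The part of fat or fibroblasts in the Gas6, Pros1 and Tyro3 values was not tested. In bulk tissue, fewer cells of a type and less RNA per cell cannot be told apart.

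Macrophage markers, unlike Mertk itself, passed the test between the groups. Of 18 measured markers 13 rose and none fell, against 3.69% of all genes that rose and 5.47% that fell. The groups did not overlap for 16 of them, all higher in relapsed tumours, against 13% of all genes apart in that direction. The median difference of the list was 1.41, against -0.019 for all genes. Mrc1, the mannose receptor, rose by 2.17 ± 0.13 (SE), Ptprc, the leukocyte marker CD45, by 1.88 ± 0.36, Ms4a7, a membrane protein of macrophages, by 1.72 ± 0.27, and Tyrobp, a myeloid signalling adaptor, by 1.67 ± 0.20. The count of risen markers was 3, 7 and 4 without control 1, 2 and 4, and 7, 4 and 3 without relapsed 1, 2 and 3. The mean level of the list was 8.96, 9.37 and 9.21 in control 1, 2 and 4 and 10.84, 10.34 and 10.35 in relapsed 1, 2 and 3.

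Set against these markers within each array, Mertk was lower on average in relapsed tumours, but the groups overlapped. Mertk minus the mean of the macrophage markers was 0.71, -0.54 and 0.28 in control 1, 2 and 4 and -1.51, -1.10 and -0.45 in relapsed 1, 2 and 3. The difference between groups was -1.17, with p = 0.2 in an exact two-sided permutation test whose smallest p is 0.1, so it was not separated from the spread between arrays. This ratio and the next were chosen after the values were seen. Gas6 minus the mean of the fibroblast markers was -1.30, -0.88 and -0.91 in control 1, 2 and 4 and -1.13, -1.70 and -1.74 in relapsed 1, 2 and 3, a difference of -0.50 with p = 0.2 in the same exact test.

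Fibroblast markers rose as well, with 9 of 14 risen and none fallen, against 3.69% of all genes that rose and 5.47% that fell. The median difference was 1.34, and 12 of the 14 had a higher mean in relapsed tumours. Fbln1 (-0.49 ± 0.26, SE) and Thy1 (-0.05 ± 0.33) were lower without being called. Lum (lumican) rose by 2.76 ± 0.49, Dpt (dermatopontin) by 2.52 ± 0.47, Fap (fibroblast activation protein) by 2.00 ± 0.40 and Dcn (decorin) by 1.85 ± 0.13. Without control 1, 2 and 4 the count of risen fibroblast markers was 5, 1 and 1, and without relapsed 1, 2 and 3 it was 4, 1 and 1. Oligodendrocyte lineage markers were mixed. Of 12 measured, 4 fell and none rose, which is 33.3% called, against 9.16% of all genes. Of the 12, 5 had a higher and 7 a lower mean in relapsed tumours, and the median difference was -0.070. Mbp, a myelin protein, stood at 6.75 to 6.98 in controls and 7.05 to 7.61 in relapsed tumours without being called, and Pdgfra, a receptor of progenitors and fibroblasts, differed by 0.64 ± 0.33. Olig2, a transcription factor of oligodendrocyte progenitors, fell by 3.54 ± 0.43. Olig1, its relative, fell by 3.52 ± 0.36, Nkx2-2, a factor of the same lineage, by 1.31 ± 0.24, and Cnp, a myelin enzyme, by 1.31 ± 0.18. The mean level of that list was 8.06, 8.38 and 8.07 in control 1, 2 and 4 and 7.54, 7.55 and 7.33 in relapsed 1, 2 and 3, so relapsed 3, not relapsed 1, was lowest for it. The count of fallen lineage markers was 1 to 3 when any one array was left out. The part of a change in cell type in the Tyro3 value was not tested.

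**Figure D3:**
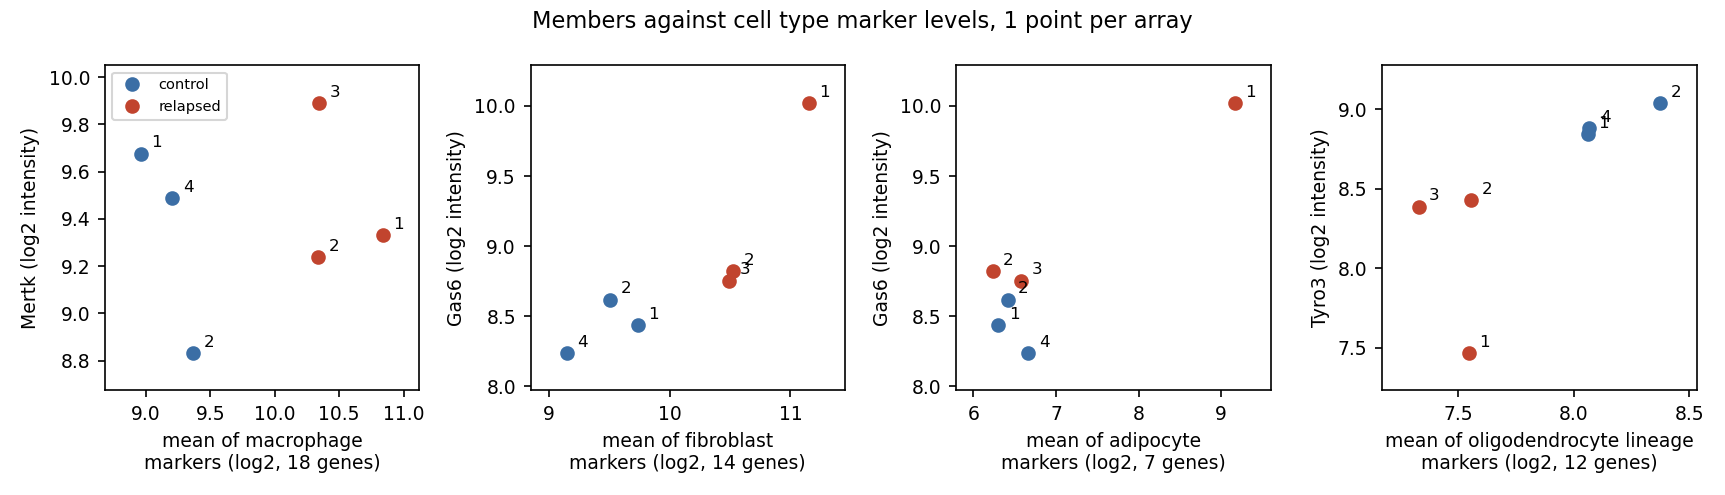
Log2 intensity of Mertk, Gas6 (shown against 2 marker lists) and Tyro3 (vertical axes) against the mean log2 level of macrophage, fibroblast, adipocyte and oligodendrocyte lineage markers (horizontal axes), 1 point per array with its tumour number, control in blue and relapsed in red. Macrophage markers separate the groups while Mertk overlaps, and relapsed 1 lies alone at an adipocyte level of 9.16 and a Gas6 level of 10.02.

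The remaining marker lists give RNA levels for other cell types that the tumours could hold. Gfap, the astrocyte filament gene, was present in both groups, at 8.63 to 9.84 in controls and 9.32 to 10.73 in relapsed tumours. Of 14 markers of endothelial cells, which also make Gas6 and Pros1, only Robo4 fell, by 0.58 ± 0.12 (SE), and none rose. That is 7.14% called, against 9.16% of all genes. Still, 12 of the 14 had a lower mean in relapsed tumours, and the median difference was -0.31. The mean level of the list was 8.22, 8.51 and 8.31 in control 1, 2 and 4 and 8.12, 8.06 and 7.89 in relapsed 1, 2 and 3. Cdh5, which encodes VE-cadherin, stood at 9.41 to 9.77 in controls and 8.98 to 9.41 in relapsed tumours. Relapsed 3 held keratinocyte markers at a mean of 7.43 over 9 genes, against 5.55 to 5.80 in the other 5 arrays, and it was also the array with the highest Axl and Mertk. No gene of the skeletal muscle, adipocyte, keratinocyte, Schwann cell, pericyte or dendritic and NK cell lists was called in limma, against 9.16% of all genes. Klrd1, a receptor of NK cells, stood at 4.64 to 5.37 in controls and 5.76 to 7.22 in relapsed tumours, and Pdgfrb, a pericyte and fibroblast receptor, at 8.79 to 9.18 and 9.52 to 10.83, with adjusted p of 0.0739 and 0.0922 in limma. Among 12 astrocyte markers Gja1, a gap junction protein, rose by 2.05 ± 0.35, while Slc1a3, a glutamate transporter, fell by 1.56 ± 0.26 and Sox9, a glial transcription factor, by 0.66 ± 0.11. These called genes were 25% of the list, against 9.16% of all genes. Among 6 genes enriched in microglia 1 fell and none rose, which is 16.7% called, against 9.16% of all genes. The other 5 had higher means in relapsed tumours, and the median difference of the list was 1.16. Sall1, a transcription factor that sets microglial identity, fell by 1.04 ± 0.13, whereas Cx3cr1, the fractalkine receptor, and Tmem119, a microglial membrane protein, differed by 1.24 ± 0.28 and 1.07 ± 0.24 with adjusted p of 0.0552 and 0.0561 in limma.

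Genes that act beside the TAM system in the uptake of dying cells were examined as a list. Of 26 other receptors and bridging proteins for apoptotic cells, 8 rose and 2 fell, with a median difference of 0.43. That is 38.5% called, against 9.16% of all genes (3.69% higher and 5.47% lower). Of the 26, 4 were also on the macrophage list, and these gave 3 of the 8 rises. Msr1, the macrophage scavenger receptor, rose by 1.90 ± 0.24 (SE), from 8.93, 9.13 and 8.25 in control 1, 2 and 4 to 10.60, 10.80 and 10.59 in relapsed 1, 2 and 3. Cd14, a co-receptor for lipopolysaccharide that also binds apoptotic cells, rose by 1.59 ± 0.27. Stab1, a phosphatidylserine receptor of macrophages, rose by 1.22 ± 0.21, and Itgb5, an integrin subunit that binds Mfge8, by 0.92 ± 0.20.

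The members of that list that fell are known from neural cells. Megf10, an engulfment receptor of astrocytes, fell by 1.87 ± 0.29 (SE), from 10.35, 9.77 and 9.44 in control 1, 2 and 4 to 7.60, 8.30 and 8.07 in relapsed 1, 2 and 3. Adgrb3, an adhesion receptor of brain, fell by 1.69 ± 0.28, and its relapsed levels of 4.77 to 5.73 lay near 5.66, the median level of unannotated probe sets. Mfge8, which bridges phosphatidylserine to integrins much as Gas6 bridges it to TAM receptors, was not called, at 0.16 ± 0.27, and Timd4 and Havcr2, receptors of the TIM family, differed by 0.34 ± 0.18 and 0.93 ± 0.29 without being called. Without any one array the list had 0 to 2 rises and 0 or 1 fall, with no rise without relapsed 3. A smaller group also lowers the power of the test, so these counts do not single out an array.

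**Figure D4:**
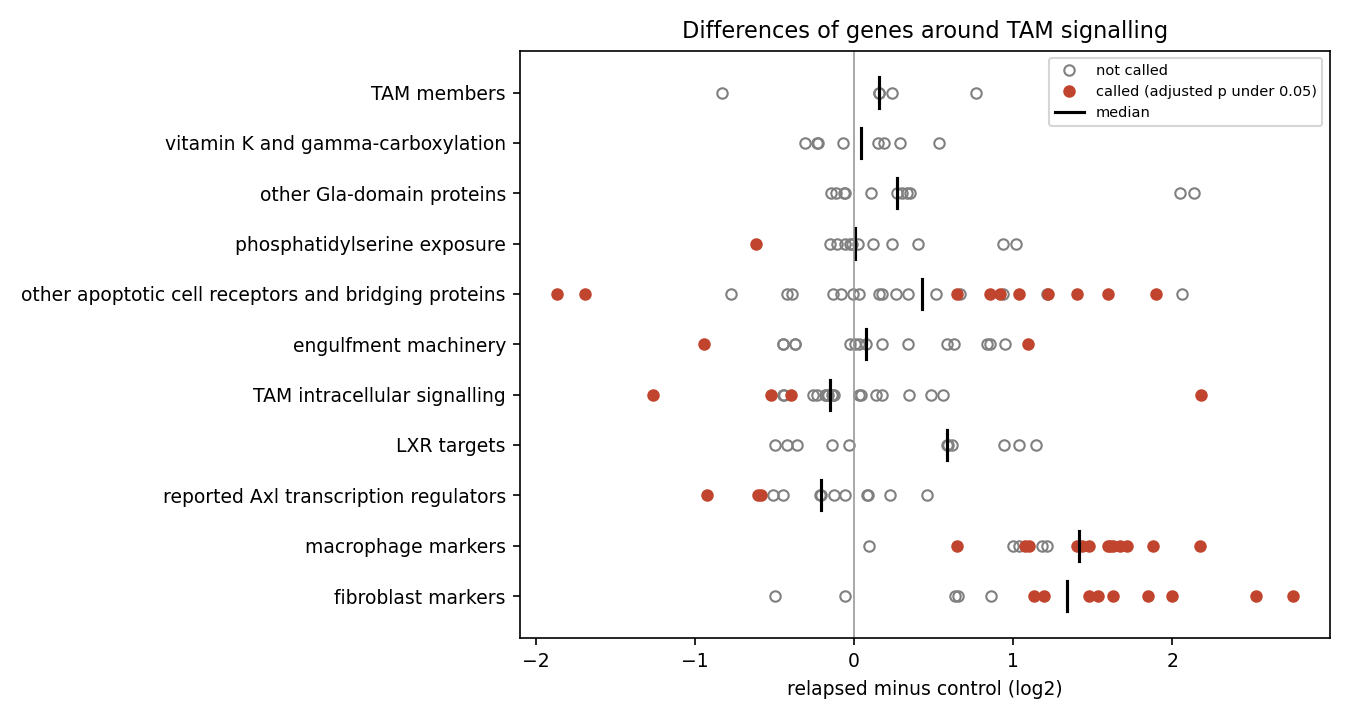
Relapsed minus control difference (horizontal axis, log2) of every measured gene in 11 gene lists (rows), filled where limma called the gene, with the list's median as a bar. The 5 TAM genes are all open circles between -0.83 and 0.77, while macrophage and fibroblast markers hold 13 and 9 called rises.

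Steps that make the ligands active were examined next. Among 8 measured genes of the vitamin K cycle, carboxylation and related oxidoreductases none was called in limma, against 9.16% of all genes. There were 0 rises and 0 falls, and the median difference was 0.041. Vkorc1, the vitamin K epoxide reductase that warfarin blocks, differed by 0.19 ± 0.10 (SE) and Ggcx by 0.15 ± 0.36. The smallest p-values there were those of Txndc12, an endoplasmic reticulum thioredoxin, at -0.31 ± 0.10 and Nqo1, a quinone reductase, at 0.53 ± 0.18, with adjusted p of 0.112 and 0.129. Of 11 other proteins with a Gla domain none was called in limma either, against the same 9.16%. The groups were nevertheless apart for 4 of the 11, all higher in relapsed tumours, against 13% of all genes apart in that direction. Mgp, the matrix Gla protein, stood at 10.34, 7.86 and 9.20 in relapsed 1, 2 and 3 against 6.84, 7.44 and 6.71 in control 1, 2 and 4. Prrg4, a transmembrane Gla protein, differed by 2.04 ± 0.46 with an adjusted p of 0.0531 in limma. Prrg1, of the same family, differed by 0.27 ± 0.07 with an adjusted p of 0.0843.

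Of 12 genes that set the exposure of phosphatidylserine, the signal that TAM ligands read, 1 fell and none rose, a share of 8.33% that lies near the 9.16% of all genes called. Ano6, a calcium-activated scramblase, fell by 0.62 ± 0.13 (SE), from 12.06, 11.84 and 11.99 in control 1, 2 and 4 to 11.14, 11.34 and 11.56 in relapsed 1, 2 and 3. Plscr4, of the phospholipid scramblase family, was at 7.32 to 7.35 in controls and 7.78 to 8.79 in relapsed tumours (limma, adjusted p = 0.0821). Xkr8, the scramblase that caspases activate, differed by -0.15 ± 0.16. Among other proteins linked to TAM receptors, Lgals3 (galectin-3), reported as a ligand of Mertk, rose by 1.61 ± 0.23, from 9.48, 10.08 and 9.89 to 11.09, 11.43 and 11.77. It was 1 of 5 genes, with none fallen, which is 20% called, against 9.16% of all genes. Adam10 and Adam17, proteases that shed the receptors, were not called, at -0.29 ± 0.17 and 0.17 ± 0.14.

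Of 22 measured genes of TAM signalling inside the cell, 18 were not called, 1 rose and 3 fell. That is 18.2% called, against 9.16% of all genes, and none of the falls was called when any one array was left out. Fyn, a Src family kinase, fell by 1.26 ± 0.23 (SE), Pik3r2, a regulatory subunit of phosphoinositide 3-kinase, by 0.52 ± 0.09, and Plcg1, a phospholipase, by 0.39 ± 0.08. Twist1, a transcription factor reported to be induced by Axl in macrophages, rose by 2.18 ± 0.29, and it is also made by fibroblasts. Socs1 and Socs3, the suppressors of cytokine signalling through which TAM receptors restrain inflammation, differed by -0.13 ± 0.09 and -0.23 ± 0.23 and were not called. Of 17 genes of the engulfment machinery 15 were not called, and the 11.8% called lay near the share of all genes. The groups were apart for 11 of the 17, however, 6 higher and 5 lower in relapsed tumours, against 30.8% of all genes. Dock2, the exchange factor of leukocytes, rose by 1.09 ± 0.20 and Vav3 fell by 0.94 ± 0.12. Of the called genes named, Fyn, Pik3r2, Plcg1, Dock2, Ano6, Megf10, Adgrb3, Mzf1, Ptprc, Fap, Robo4 and Sox9 each lost the call when any one array was left out.

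Transcription factors reported to act on Axl or Mertk were examined last. Of 13 regulators of Axl, 3 fell and none rose, which is 23.1% called, against 9.16% of all genes. Tead2, a partner of Yap1, fell by 0.93 ± 0.07 (SE), from 10.81, 10.85 and 10.65 in control 1, 2 and 4 to 9.88, 9.82 and 9.83 in relapsed 1, 2 and 3, and its call held without each array in turn. Jun, a subunit of AP-1, fell by 0.61 ± 0.12 and Mzf1, a zinc finger protein, by 0.59 ± 0.10, but Jun kept its call only without control 2 and Mzf1 lost it without any one array, while Yap1 itself differed by 0.23 ± 0.17 and was not called. Of 6 measured nuclear receptor regulators of Mertk none was called in limma, against 9.16% of all genes, and the groups overlapped for each of them. Nr4a1 and Ppard had the smallest p-values there, at -0.59 ± 0.28 and -0.27 ± 0.14, and Nr1h3, the liver X receptor alpha, differed by -0.05 ± 0.28. Of 11 liver X receptor targets none was called in limma, against the same 9.16%, with a median difference of 0.59. The groups were apart for 5 of the 11, 4 higher and 1 lower in relapsed tumours, against 30.8% of all genes. Mylip and Abca1 had the smallest p-values, at 0.94 ± 0.22 and 0.59 ± 0.18 with adjusted p of 0.0562 and 0.103 in limma.

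Of the receptors that Axl can pair with, Met stood at 10.11, 9.47 and 9.34 in control 1, 2 and 4 and 11.13, 10.49 and 10.78 in relapsed 1, 2 and 3, with an adjusted p of 0.0542 in limma. Erbb2 (-0.66 ± 0.15) was lower in every relapsed tumour, at 7.91, 7.79 and 8.13 against 8.51, 8.85 and 8.44, with an adjusted p of 0.0511 in limma. Egfr (0.24 ± 0.30) and Erbb3 (0.64 ± 0.28) were not called either. Of 6 such receptors none was called, against 9.16% of all genes. The groups were apart for 3 of the 6, 2 higher and 1 lower in relapsed tumours, against 30.8% of all genes.

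The genes most like each member were taken as those with the smallest root mean square difference from it over the 6 arrays, after centring each gene on its own mean. For Tyro3 these were Hbegf, Rbpms2 and Nav3, at 0.12, 0.13 and 0.13 log2 units. For Gas6 they were Galnt13, Lypd6 and Cd59a, at 0.080, 0.094 and 0.10, although the mean levels of Galnt13, like those of Mir96 for Axl, lay below 5.66. Mertk was nearest to Cenpi, Gmps and Tmem68 at 0.096, 0.11 and 0.12. Axl and Pros1 varied little, with SD of 0.19 and 0.24 over the 6 arrays, and their nearest genes lay within 0.039 (Mir96, Cap1 and Mbd4 for Axl, and Ccl4, Celf2 and Hibch for Pros1). Many genes of small spread lie that close, so these names only describe the pattern.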

How the data were processed

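Total RNA (5 ug per tumour) was labelled and hybridised, per the labels' protocols. The deposited table holds log2 intensities per probe set, a scale read from the values, with array medians of 6.58 to 6.68. The affy package is named in the submitters' processing notes. How background, normalization and summarization were handled, and the genome build, are not given in the sources used. Scaling between arrays would hide a change shared by most transcripts. Values were used as deposited, unfiltered. Of 35556 probe sets, 21789 had 1 gene symbol in the platform annotation, 1621 several and 12146 none listed. The highest-mean probe set stood for each of 19938 genes.

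Relapsed and control arrays (3 each) were compared with limma 3.58.1 (R 4.3.3; lmFit, eBayes), two-sided, with Benjamini-Hochberg adjustment over all genes. SE and 95% intervals are limma's, and the number of arrays limits their precision. On simulated data for this comparison over 19938 genes, 63 of 100 genes changed by 1 log2 unit and 93 of 100 changed by 2 were called, with 4 false calls. Only 200 genes were changed there, with independent noise, while 9.16% of genes were called in the data. The simulated rates may therefore not hold for the data.

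The members and 24 gene lists (the members among them) were chosen with earlier results of these data known. Of 274 list genes, 261 were measured. By rule, named genes were the members, up to 4 called genes per list with the largest difference (the 2 with the smallest p where none was called), and the 3 genes most like each member. For the Schwann, muscle, fat, keratinocyte, pericyte and NK lists not all of these are printed. Other names were chosen after their values were seen. Alternatives were a filter on dim genes, 2 other scalings, probe set averaging, all probe sets, a trended robust prior, array weights, a replicate block and leaving out each array.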

Additional observations from a re-analysis of the deposited data

How the results depend on the processing

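Over the 14 alternatives no member was called except Tyro3 without relapsed 1 (-0.52, adjusted p = 0.0476 in limma), and only Mertk changed direction (-0.10 without control 2 and -0.048 without relapsed 3). The adjusted p of Tyro3 ran from 0.0476 to 0.455, and that of Gas6 from 0.147 to 0.624. With each array left out in turn, Axl ranged from 0.032 to 0.23, Mertk from -0.10 to 0.33, Tyro3 from -0.996 to -0.52, Gas6 from 0.36 to 0.99 and Pros1 from 0.093 to 0.32. Of 32 called genes named besides the members, 3 (Dcn, Mrc1 and Tead2) kept the call without each array in turn.

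The counts of calls fell whichever array was left out. Leaving out an array also lowers the power of the test, so the fall does not single out an array. Against 735 genes higher and 1091 lower in relapsed tumours, leaving out 1 array gave 120 to 380 higher and 144 to 595 lower. Median centring gave 1687 lower genes, and the median difference of all genes was then -0.093. Without 1 array, risen genes numbered 0 to 2 among apoptotic cell receptors, 3 to 7 among macrophage markers, 1 to 5 among fibroblast markers, 0 to 2 among other Gla-domain proteins, and 0 or 1 among microglia-enriched genes, astrocyte markers, bypass receptors, liver X receptor targets, Axl regulators, TAM signalling genes and other TAM-linked proteins. Engulfment genes had no rise. Fallen genes numbered 1 to 3 among oligodendrocyte lineage markers, 1 to 2 among Axl regulators, 0 to 2 among engulfment genes, 0 or 1 among apoptotic cell receptors, astrocyte markers, microglia-enriched genes and nuclear receptor regulators, and 0 among TAM signalling, phosphatidylserine and endothelial genes.

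With the dimmer 50% of genes left out, 3 engulfment genes rose, as did 2 Gla-domain proteins, 2 bypass receptors, 2 microglia-enriched genes and 1 gene each of the phosphatidylserine, liver X receptor target, Axl regulator and pericyte lists, and 1 bypass receptor fell. Quantile normalization gave 2 rises each in the engulfment and microglia lists, 1 each in the Gla-domain, liver X receptor target, Axl regulator and bypass lists, and 1 fall each among liver X receptor targets and bypass receptors. Median centring gave 1 risen Gla-domain protein, 3 fallen engulfment genes and 1 fallen bypass receptor. Array weights gave 1 rise each in the vitamin K, liver X receptor target and Axl regulator lists, 2 each in the Gla-domain, engulfment and microglia lists, and 1 fallen bypass receptor. The trended robust prior gave 1 risen Gla-domain protein, and testing all probe sets left 0 falls in the phosphatidylserine and endothelial lists. The causes of these shifts were not tested.

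Only numbers 1 and 2 occur in both groups, and nothing in the labels pairs them. With the replicate number as a block (replicate block), which left 1 residual degree of freedom, limma called 0 genes overall and 0 in every list, with 2199 genes at an unadjusted p under 0.05. Member differences were then 0.14 for Axl, 0.030 for Mertk, -0.995 for Tyro3, 0.89 for Gas6 and 0.36 for Pros1. Deviations from the group means correlated at -0.34 between the arrays numbered 1 and at -0.25 between those numbered 2.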
